A study of Rattus norvegicus with 10 samples.

Results

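The genes of glycolysis, of the pyruvate dehydrogenase complex and of the citric acid cycle were followed in the choroid plexus, which lines parts of the brain ventricles and secretes the cerebrospinal fluid. From a list of 35 such genes, those with a symbol in the paper's tables were joined by Ensembl identifier to the deposited values. This gave 27 genes out of 32883 listed in the series, of which 11 belong to glycolysis, 3 to pyruvate dehydrogenase and 13 to the citric acid cycle. The other 8 (HK1, PFKP, ALDOC, GAPDH, ENO2, DLAT, PDHX and OGDH) were not analysed here. RNA came from 10 female Wistar rats aged 27 weeks, with 1 rat per library. For 21 weeks, 5 rats received a nutrient source-matched control diet (10% of the energy from fat) and 5 a high fat diet (HFD, 60% of the energy from fat). The labels name no altered allele and no agent besides the diet. The study kept control rats under a weight limit and HFD-fed rats over a higher one, so that diet and selection by weight cannot be told apart. Plexus of the lateral and of the fourth ventricle was used.

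Glycolysis splits glucose into pyruvate in the cytosol and yields ATP without oxygen. Pyruvate then enters the mitochondria, where the pyruvate dehydrogenase complex turns it into acetyl-CoA. The citric acid cycle oxidizes acetyl-CoA and hands the electrons to the respiratory chain. Ion pumping by the choroid plexus epithelium is costly in ATP, and these cells are rich in mitochondria.

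Values are TPM, the share of each transcript in all transcripts of a library, corrected for transcript length. They carry no read number, so the depth of each library is unknown beyond the sequencing output that the study's methods state. Transthyretin (TTR), the carrier protein that marks this epithelium, took 32.2% to 39.7% of all TPM. Because such a share presses on all other values, TPM were scaled between rats by median ratios over 12037 genes, and the result is called rescaled TPM. All 10 epithelial markers of a list (TTR, KL, FOLR1, AQP1, KCNJ13, OTX2, CLIC6, KCNE2, SLC4A5 and ENPP2) were found in every rat. The lowest was OTX2 with a rescaled TPM of 55.8 or more. These values go with the tissue label. Most genes that could be named were abundant ones, and no marker of neurons or glia was among them. Admixed brain tissue could therefore not be checked. In bulk tissue, fewer cells of a type and less RNA per cell cannot be told apart.

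Control rat 1 differed from the remaining 9 rats across its transcriptome. Its scaling factor was 0.747, against 0.944 to 1.13 elsewhere. After rescaling, 1842 of its genes were more than 2-fold away from the median of the rest, whereas each other rat had 171 to 235 such genes. Group results are therefore given with and without this rat, and so are many single genes.

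Every gene of the set was abundant, and the levels spanned a wide range. Mean rescaled TPM over the 10 rats ran from 46.95 for CS, the citrate synthase, to 881 for MDH1, the cytosolic malate dehydrogenase. Next to MDH1 came the aldolase ALDOA (831), the lactate dehydrogenase subunit LDHB (707) and the enolase ENO1 (514). Of the summed level of the 11 glycolysis genes analysed, ALDOA and LDHB took 20.8% and 17.7%, whereas PFKL and PFKM, phosphofructokinases of the committed step, took 1.64% and 1.44% (PFKP, GAPDH and the other genes not analysed are outside this sum). Of the 13 citric acid cycle genes analysed MDH1 took 40.2%, followed by the mitochondrial isocitrate dehydrogenase IDH2 (14.6%) and by MDH2 (7.55%). The members had to be abundant by the way they were named, since the copy of the table that gave most symbols holds the 1997 genes with the highest mean TPM on the control diet, down to a mean of 45. CS was the member closest to that limit, with a TPM as deposited of 45.9 in control rats and 49.6 in HFD-fed rats.

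**Figure D1:**
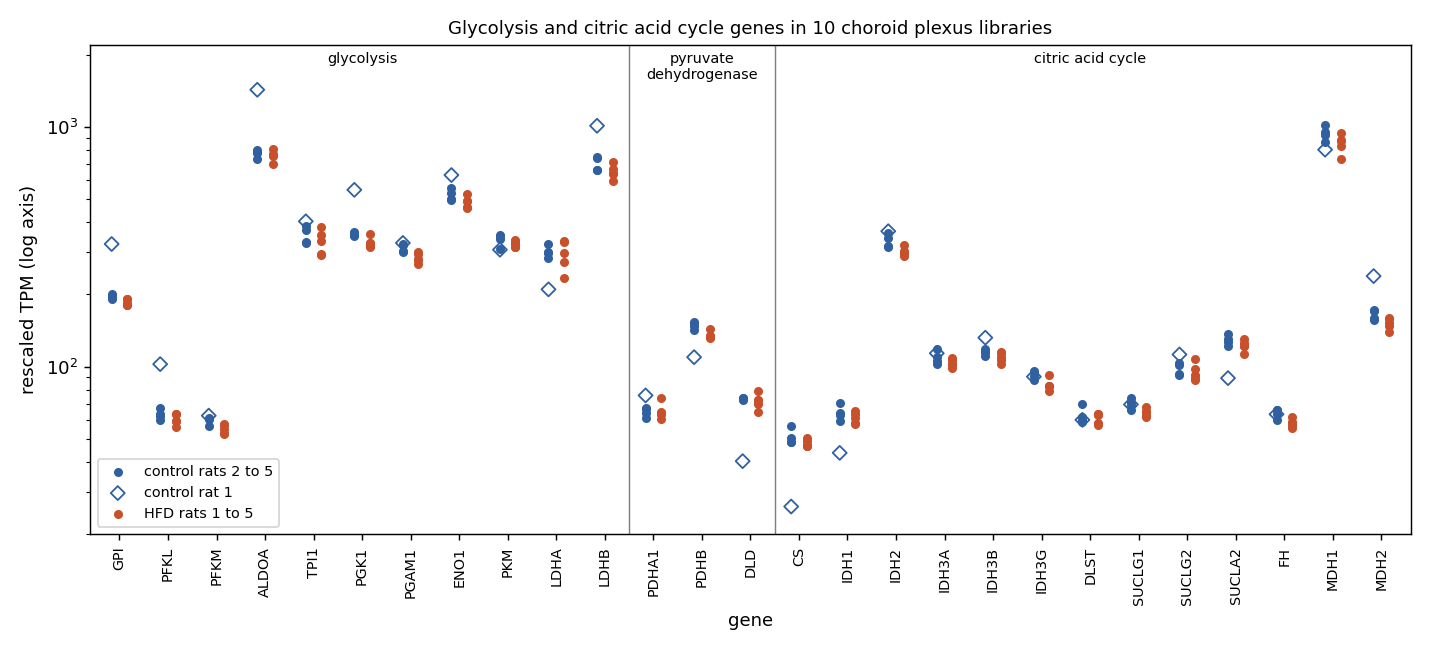
Rescaled TPM (log axis) of the 27 genes in each of the 10 rats, ordered along the pathway, with blue dots for control rats 2 to 5, open diamonds for control rat 1 and red dots for the HFD-fed rats. The open diamond lies far above the other control rats for GPI, PFKL, ALDOA, PGK1, LDHB and MDH2 and far below them for LDHA, PDHB, DLD, CS, IDH1 and SUCLA2, while the red dots mostly sit at or slightly below the blue ones.

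The first question was whether the HFD changed the transcripts of these pathways. None of the 27 genes passed the test. In limma with adjustment over 12198 genes, the adjusted p was under 0.05 for 0 of the 27 and the smallest was 0.542, and the same fit called 0 of all genes (0%). That outcome holds for this fit on TPM. The study's own test on raw counts did call a small share of genes, most of them lower on the HFD. Those calls are not set beside the members here. An unadjusted p under 0.05 was found for 5 of the 27, all with lower values on the HFD, against 4.83% of all genes tested with a lower value and 8.59% in either direction. Among the 2052 genes that averaged 45 or more rescaled TPM, like the members, these shares were 12.4% and 13.6%.

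Lower mean values in HFD-fed rats were common in the set, but also among abundant genes at large. The log2 fold change was below 0 for 22 of the 27 genes, namely 10 of 11 in glycolysis, 2 of 3 in pyruvate dehydrogenase and 10 of 13 in the citric acid cycle. It was below 0 for 47.3% of all genes tested and for 69.4% of the abundant ones. The medians were -0.16 for glycolysis, -0.037 for pyruvate dehydrogenase and -0.10 for the citric acid cycle, beside 0.013 for all genes and -0.080 for the abundant ones. Without control rat 1 the medians were -0.097 for glycolysis, -0.031 for pyruvate dehydrogenase and -0.091 for the citric acid cycle. In that fit the median was 0.0019 for all genes and -0.056 for the abundant ones. The pyruvate dehydrogenase median, over 3 genes, was -0.017 without control rat 3, -0.012 without control rat 4, -0.066 without HFD rat 2 and -0.0087 without HFD rat 5. With TPM as deposited the 3 medians were -0.057, 0.066 and 0.00099, beside 0.12 for all genes and 0.023 for the abundant ones. Single genes ran from -0.24 (PGK1) to 0.14 (DLD), with standard errors of 0.055 to 0.18.

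The direction depended on the scaling and on control rat 1. With TPM as deposited, the log2 fold change of a typical gene moved up by 0.10 and 15 of the 27 genes were below 0 (27% of all genes and 43.2% of the abundant ones were). On that scale 0 of the 27 had an unadjusted p under 0.05, against 5.11% of all genes (1.26% with a lower value) and 5.17% of the abundant ones (3.75% with a lower value). The log2 fold changes of the 5 genes with such a p in rescaled TPM were then -0.049 for PGAM1, -0.026 for PFKM, -0.077 for IDH2, -0.027 for FH and -0.030 for IDH3G. Without control rat 1, 26 of the 27 genes were below 0, all but PDHA1, against 49.4% of all genes and 73.1% of the abundant ones. In that fit 9 genes had an unadjusted p under 0.05, all of them with lower values on the HFD. The share with a lower value was 6.26% of all genes (11.8% in either direction) and 16.2% of the abundant ones (18.4% in either direction), and 0 genes were called after adjustment. With both changes made together, 26 of the 27 genes were below 0 (45.8% of all genes and 68.4% of the abundant ones) and 2 had an unadjusted p under 0.05 (7.12% of all genes and 11.8% of the abundant ones). Members with an unadjusted p under 0.05 numbered 3 without control rat 2 (9% of all genes and 12.8% of the abundant ones had such a p), 2 without control rat 4 (7.48% and 10.9%) and 1 without HFD rat 1 (6.99% and 9.65%). They numbered 3 without HFD rat 3 (6.57% and 10.1%), 3 without HFD rat 4 (6.51% and 9.02%) and 2 without HFD rat 5 (6.64% and 9.55%). The count was 5 without control rat 3 (8.78% and 13.99%), 6 without control rat 5 (9.98% and 16.03%) and 6 without HFD rat 2 (7.85% and 15.3%).

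**Figure D2:**
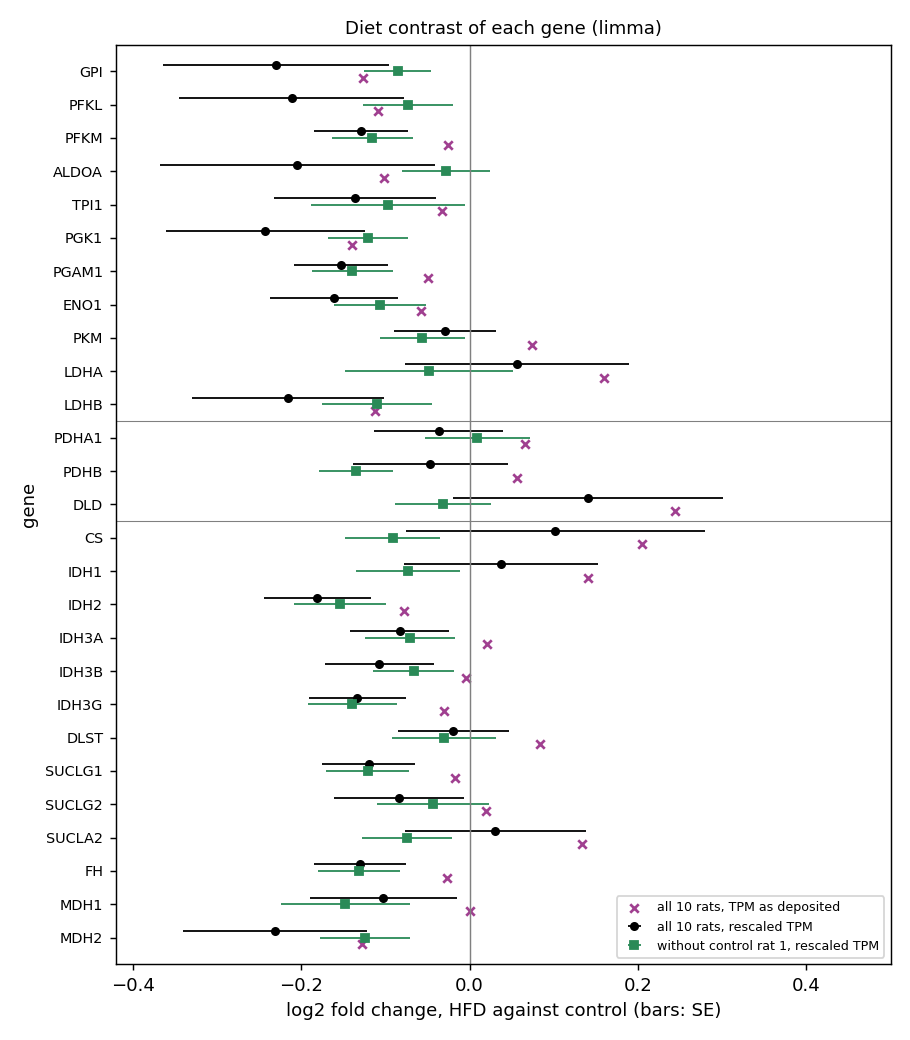
Log2 fold change of HFD-fed against control rats for each of the 27 genes, with black dots for all 10 rats and green squares without control rat 1 (bars are standard errors from limma), and purple crosses for TPM as deposited. The black dots lie between -0.24 and 0.14, and the green squares draw together between -0.15 and 0.0093.

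In glycolysis, the genes with the smallest unadjusted p by limma were PGAM1, PFKM and ENO1, and all 3 had lower means on the HFD. PGAM1 (ENSRNOG00000050585), the phosphoglycerate mutase, had a rescaled TPM of 328, 303, 326, 320.4 and 302 in control rats 1 to 5 and of 268, 299, 294, 281 and 278 in HFD rats 1 to 5. Every HFD-fed rat was thus below every control rat, and control rat 1 was close to the other control rats. The means were 284 ± 12.5 on the HFD against 316 ± 12.4 on the control diet (± SD, n = 5 each; p = 0.00794, exact permutation), where 5 rats against 5 allow no smaller p (log2 fold change -0.15, SE 0.056, adjusted p = 0.543 by limma).

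PFKM (ENSRNOG00000057988), the muscle-type phosphofructokinase, had 62.4, 60.96, 60.2, 60.4 and 56.4 in the control rats and 52.8, 54.95, 57.7, 57.01 and 52.2 on the HFD. Only control rat 5 reached into the HFD range (log2 fold change -0.13, SE 0.056, exact permutation p = 0.0238, adjusted p = 0.569 by limma). ENO1 (ENSRNOG00000017895) averaged 484 ± 25.1 on the HFD against 543 ± 53.6 on the control diet (± SD, n = 5 each; p = 0.0397, exact permutation), with an unadjusted p of 0.0592 by limma. Control rat 1 had the highest ENO1 value (629 against 497 to 556 in the other control rats). The log2 fold change of ENO1 was -0.16 with all rats and -0.11 without control rat 1 (unadjusted p = 0.0809 by limma). By the exact permutation p, GPI and PGK1 came before ENO1.

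The diet groups did not overlap for GPI (ENSRNOG00000023150), the glucose phosphate isomerase, which had 324, 201, 197, 192 and 196 in the control rats and 179.7, 191, 191, 184 and 181 on the HFD. The gap between the groups was narrow, with 192 as the lowest control value and 191 as the highest HFD value. Its log2 fold change of -0.23 rested on control rat 1 and was -0.085 without it (exact permutation p = 0.00794 with all rats, adjusted p = 0.579 by limma). Such a complete separation with lower values on the HFD was found for 2 of the 27 members, GPI and PGAM1, for 2.02% of all genes tested and for 6.24% of the abundant ones. It depended on the scaling, since with TPM as deposited both genes overlapped between the diets and PGK1 alone of the 27 was lower in every HFD-fed rat (0.335% of all genes and 1.27% of the abundant ones were). PGAM1 as deposited was 245 in control rat 1, below the 278 to 314 of the HFD-fed rats, and GPI had 199 as its lowest control value and 204 as its highest HFD value.

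The largest differences within glycolysis came from genes with 1 very high control value. PGK1 (ENSRNOG00000058249), a phosphoglycerate kinase that makes ATP, had 545 in control rat 1, 349 to 364 in the other control rats and 315 to 357 on the HFD. Its log2 fold change of -0.24 became -0.12 without control rat 1. ALDOA (ENSRNOG00000052802) had 1426 in control rat 1, 733 to 797 in the other control rats and 702 to 811 on the HFD, and went from -0.20 to -0.028. PFKL (ENSRNOG00000001214), the liver-type phosphofructokinase, had 102 in control rat 1, 59.98 to 67.4 in the other control rats and 55.9 to 63.4 on the HFD, and went from -0.21 to -0.073.

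The remaining glycolysis genes overlapped between the diets. TPI1 (ENSRNOG00000015290), the triose phosphate isomerase, averaged 331 ± 39.6 on the HFD against 363 ± 33.6 on the control diet (± SD, n = 5 each; p = 0.206, exact permutation). PKM (ENSRNOG00000011329), the pyruvate kinase, averaged 324 ± 10.3 on the HFD against 331 ± 21.6 on the control diet (± SD, n = 5 each; p = 0.524, exact permutation). Its splice forms are not separated in values per gene. Many glycolytic genes have processed copies in rodent genomes, and RSEM can divide reads among near-identical copies, so the levels of these genes carry that uncertainty.

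Lactate dehydrogenase interconverts pyruvate and lactate, and its LDHA and LDHB subunits went apart in control rat 1. LDHB (ENSRNOG00000013000) had 1009, 740.2, 659, 747 and 663 in the control rats and 667, 714, 637, 595 and 638 on the HFD. LDHA (ENSRNOG00000013009) had 209.8, 300.2, 298, 325 and 284 in the control rats and 273, 332, 333, 298 and 235 on the HFD. Control rat 1 thus had the highest LDHB and the lowest LDHA value of all 10 rats, and the diets overlapped for both genes (exact permutation p = 0.0635 for LDHB and 0.675 for LDHA). Without that rat the log2 fold change went from -0.22 to -0.11 for LDHB and from 0.056 to -0.048 for LDHA.

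**Figure D3:**
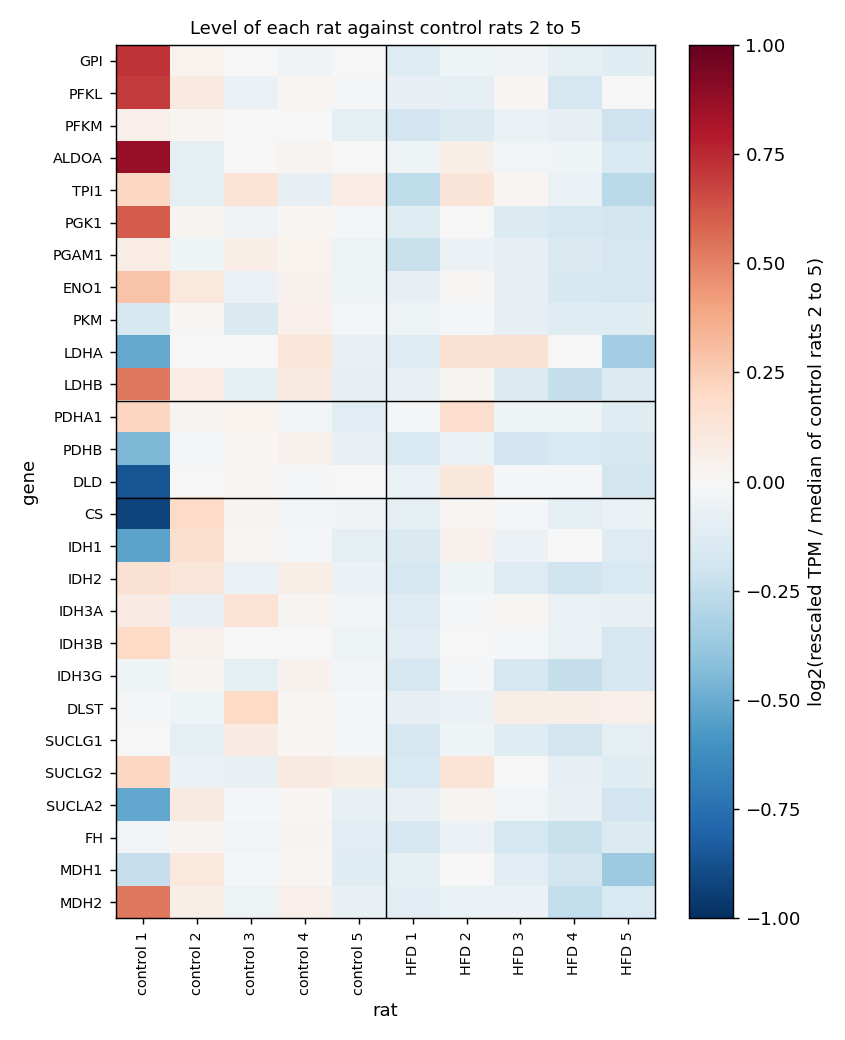
Rescaled TPM of each rat (columns) for the 27 genes (rows), as the log2 ratio to the median of control rats 2 to 5, with red for higher and blue for lower values. Control rat 1 shows values from -0.93 (CS) to 0.87 (ALDOA), whereas the other columns are pale, and the HFD columns are mostly light blue.

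Of the pyruvate dehydrogenase complex, PDHA1 and PDHB encode the subunits of the decarboxylating enzyme, and DLD the dihydrolipoamide dehydrogenase that the complex shares with the oxoglutarate dehydrogenase of the cycle. PDHB (ENSRNOG00000007895) had 109, 147, 152, 154 and 142 in the control rats and 134, 143, 131, 134 and 134 on the HFD. Control rat 1 was the lowest of all 10 rats, and 4 of the 5 HFD-fed rats were below all other control rats. The log2 fold change was -0.046 with all rats (exact permutation p = 0.706) and -0.13 without control rat 1, where limma gave an unadjusted p of 0.0112 (0.297 after adjustment).

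DLD (ENSRNOG00000006364) had 40.3 in control rat 1, 72.3 to 74.1 in the other control rats and 64.6 to 79.1 on the HFD. Its higher HFD mean rested on the low value of control rat 1, and the log2 fold change went from 0.14 to -0.031 without it. PDHA1 (ENSRNOG00000025383) averaged 65.2 ± 5.15 on the HFD against 66.9 ± 5.54 on the control diet (± SD, n = 5 each; p = 0.579, exact permutation), and its log2 fold change went from -0.037 to 0.0093 without control rat 1.

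In the citric acid cycle, IDH2, FH and IDH3G had the smallest unadjusted p by limma, again with lower means on the HFD, whereas by the exact permutation p FH and SUCLG1 came first. IDH2 (ENSRNOG00000013949), the mitochondrial isocitrate dehydrogenase that makes NADPH, had 367, 360.00, 316, 344 and 317 in the control rats and 292, 321, 303, 289 and 297 on the HFD. HFD rat 2 alone reached the lower control values (log2 fold change -0.18, SE 0.064, exact permutation p = 0.0238, adjusted p = 0.542 by limma).

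FH (ENSRNOG00000003653), the fumarate hydratase, had 63.2, 65.7, 63.4, 65.6 and 59.7 in the control rats and 57.5, 61.8, 56.95, 55.4 and 58.6 on the HFD, so that HFD rat 2 and control rat 5 made the groups overlap (exact permutation p = 0.0159). IDH3G (ENSRNOG00000055572), the gamma subunit of the NAD-dependent isocitrate dehydrogenase, had 90.7, 95.2, 87.6, 96.00 and 91.3 in the control rats and 83.2, 91.9, 83.2, 79.3 and 82.9 on the HFD. Apart from HFD rat 2, all HFD values lay below the control values (exact permutation p = 0.0317). In rescaled TPM, control rat 1 lay inside the range of the other control rats for both genes. As deposited it was below them, with 47.2 against 60.9 to 68.04 for FH and 67.7 against 91.7 to 99.6 for IDH3G. Their rescaled log2 fold changes of -0.13 and -0.13 were -0.13 and -0.14 without it.

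The other subunits of the NAD-dependent enzyme also had values that overlapped between the diets. IDH3A (ENSRNOG00000010277), the catalytic subunit, averaged 103.6 ± 3.92 on the HFD against 109.8 ± 6.43 on the control diet (± SD, n = 5 each; p = 0.111, exact permutation). IDH3B (ENSRNOG00000007316) averaged 109 ± 5.46 on the HFD against 118 ± 8.25 on the control diet (± SD, n = 5 each; p = 0.0635, exact permutation).

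Succinyl-CoA ligase joins a common subunit, SUCLG1, with either SUCLA2 or SUCLG2, which use ADP or GDP. SUCLG1 (ENSRNOG00000005587) had 69.5, 65.8, 73.7, 70.9 and 68.8 in the control rats and 62.03, 67.7, 64.2, 61.6 and 65.3 on the HFD, with HFD rat 2 above the lowest control rat (exact permutation p = 0.0159, unadjusted p = 0.0529 by limma). SUCLG2 (ENSRNOG00000005686) averaged 94.9 ± 7.88 on the HFD against 101 ± 8.14 on the control diet (± SD, n = 5 each; p = 0.27, exact permutation), and SUCLA2 (ENSRNOG00000017481) 122 ± 6.62 on the HFD against 121 ± 18.3 on the control diet (± SD, n = 5 each; p = 0.937, exact permutation). The low value of control rat 1 (89.5) widened the control spread of SUCLA2, and its log2 fold change of 0.031 became -0.074 without that rat.

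MDH2 (ENSRNOG00000001440), the mitochondrial malate dehydrogenase, had 238, 173, 159, 171 and 157 in the control rats and 152, 158, 159, 139 and 148 on the HFD. Control rat 1 was far above all other rats, and the log2 fold change of -0.23 was -0.12 without it (exact permutation p = 0.0317 with all rats). MDH1 (ENSRNOG00000008103) averaged 849.6 ± 77.7 on the HFD against 912 ± 81.7 on the control diet (± SD, n = 5 each; p = 0.278, exact permutation).

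CS (ENSRNOG00000023520), which starts the cycle, had 26.1 in control rat 1, 48.4 to 56.7 in the other control rats and 46.4 to 50.3 on the HFD. With all rats the log2 fold change was 0.10, and without control rat 1 it was -0.091. IDH1 (ENSRNOG00000015020), the cytosolic isocitrate dehydrogenase, had 43.6 in control rat 1, 59.4 to 70.7 in the other control rats and 57.3 to 65.1 on the HFD, and went from 0.037 to -0.073. Both genes were thus lowest in control rat 1. DLST (ENSRNOG00000005061), a subunit of the oxoglutarate dehydrogenase complex, averaged 60.99 ± 3.04 on the HFD against 61.9 ± 4.41 on the control diet (± SD, n = 5 each; p = 0.778, exact permutation).

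Promoters are printed for PGAM1, PFKM and IDH3G, since these 3 of the 5 genes with an unadjusted p under 0.05 hold the same short motif, a choice made after their values were seen. The 250 bases before the transcription start, from RefSeq on the GRCr8 build, were matched by symbol for 23 of the 27 genes, all but ALDOA, PGK1, ENO1 and IDH3A. They were searched on both strands for ACGTG, the core of the hypoxia response element, for CACGTG, the E-box, which contains ACGTG, and for CAAGGTCA, a motif of estrogen-related receptors. Sequences run 5′ to 3′ in lower case, with the ACGTG core of either strand in capitals.
PGAM1 (chr1:250672902-250673151, plus strand): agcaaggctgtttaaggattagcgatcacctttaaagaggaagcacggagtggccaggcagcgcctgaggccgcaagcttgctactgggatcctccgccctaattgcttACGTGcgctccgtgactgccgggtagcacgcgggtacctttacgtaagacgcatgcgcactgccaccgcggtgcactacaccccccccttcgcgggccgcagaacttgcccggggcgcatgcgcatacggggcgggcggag
PFKM (chr7:131113849-131114098, plus strand): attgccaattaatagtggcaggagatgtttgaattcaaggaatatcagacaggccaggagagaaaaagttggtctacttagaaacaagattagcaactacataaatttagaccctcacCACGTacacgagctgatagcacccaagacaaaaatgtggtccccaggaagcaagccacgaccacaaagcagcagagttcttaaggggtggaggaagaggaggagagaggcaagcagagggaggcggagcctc
IDH3G (chrX:156675483-156675732, minus strand): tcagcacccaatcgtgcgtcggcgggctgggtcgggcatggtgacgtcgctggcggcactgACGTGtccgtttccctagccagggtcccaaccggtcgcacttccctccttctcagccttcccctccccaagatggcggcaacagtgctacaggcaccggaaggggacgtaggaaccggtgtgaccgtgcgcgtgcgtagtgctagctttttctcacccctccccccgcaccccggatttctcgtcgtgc

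The core starts at position -141 in PGAM1, -132 in PFKM and -189 in IDH3G, counted from the transcription start. ACGTG was found in 5 of the 23 promoters (21.7%), those of LDHA and PDHB included, and in 16.6% of 33469 promoters of the same length. CACGTG was found in 2 of the 23 (8.70%), LDHA and PDHB, against 5.59% of all promoters, and CAAGGTCA in 0 of the 23 against 1.33%. IDH2 and FH, the other genes with an unadjusted p under 0.05, hold none of these letters in this window. A match describes the sequence and is no measure of binding.

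Summed levels were compared next. For the 11 glycolysis genes the sum was 5346 in control rat 1, 3911 to 4084 in the other control rats and 3530 to 4060 on the HFD, and the HFD mean differed from the control mean by -11.7% with all rats and by -5.57% without control rat 1. With TPM as deposited these differences were -4.44% and -4.91%. For pyruvate dehydrogenase the sum was 225 in control rat 1, 276 to 293 in the other control rats and 259 to 296 on the HFD. Its difference was -0.711% with all rats and -4.94% without control rat 1, and 4.80% and -4.19% as deposited. For the citric acid cycle the sum was 2207 in control rat 1, 2164 to 2409 in the other control rats and 1957 to 2275 on the HFD. Here the difference was -7.36% with all rats and -8.04% without control rat 1, and -1.46% and -7.39% as deposited. Control rat 1 was hence high in glycolysis, low in pyruvate dehydrogenase and inside the control range in the citric acid cycle. With TPM as deposited it was inside the control range in glycolysis (3992 against 3985 to 4239) and low in the citric acid cycle (1648 against 2205 to 2437).

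**Figure D4:**
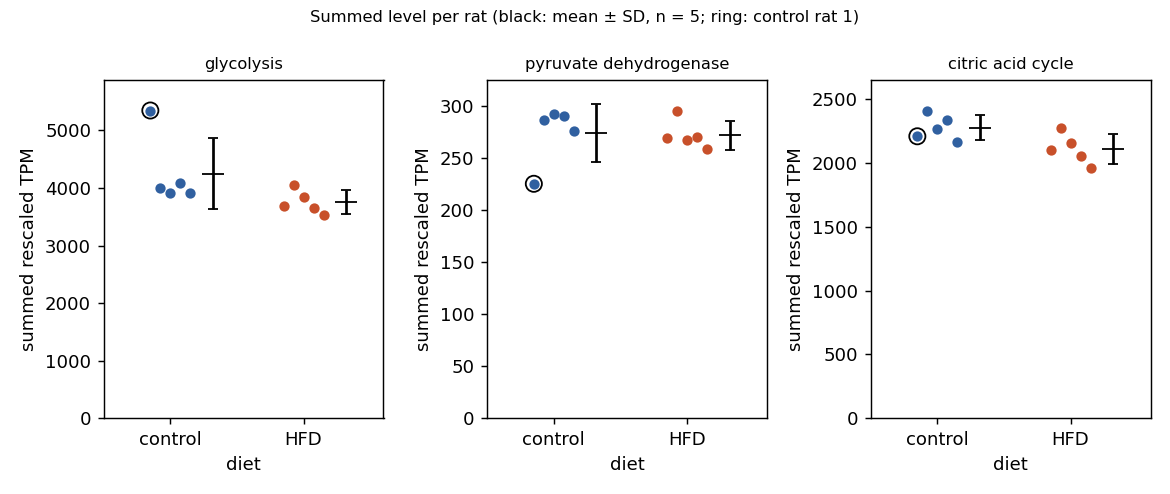
Summed rescaled TPM of the genes of each group in each rat, with control rats in blue and HFD-fed rats in red, the mean ± SD of 5 rats in black, and a ring around control rat 1. The ring lies above all other rats for glycolysis (5346) and below them for pyruvate dehydrogenase (225), and the diets overlap in all 3 groups.

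To compare isoenzymes free of any scaling, the ratio of 2 genes within a rat was tested for 5 pairs, with p adjusted over the 5. None passed. The IDH2 to IDH1 ratio was 4.93 ± 0.238 on the HFD against 5.85 ± 1.44 on the control diet (± SD, n = 5 each; exact permutation p = 0.0794, 0.397 after adjustment), and its log2 difference went from -0.22 to -0.081 without control rat 1. The LDHA to LDHB ratio was 0.453 ± 0.0638 on the HFD against 0.386 ± 0.101 on the control diet (± SD, n = 5 each; exact permutation p = 0.302, 0.746 after adjustment), a difference of 0.27 on the log2 scale (SE 0.23). Without control rat 1 it was 0.062 (exact permutation p = 0.595). The ratios of PFKM to PFKL, of SUCLA2 to SUCLG2 and of MDH2 to MDH1 had exact permutation p values of 0.746, 0.675 and 0.595.

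The ratios also showed how far control rat 1 departed from the rest. Its LDHA to LDHB ratio was 0.208, against 0.406 to 0.452 in the other control rats and 0.368 to 0.522 on the HFD. Its IDH2 to IDH1 ratio was 8.40, against 4.96 to 5.47 in the other control rats and 4.53 to 5.13 on the HFD. Its MDH2 to MDH1 ratio was 0.297, against 0.1704 to 0.181 in the other control rats and 0.168 to 0.203 on the HFD. Since these ratios do not depend on scaling, isoenzymes differed in unequal measure between this rat and the others.

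Across the set, control rat 1 had 6 genes over 1.25-fold above the median of its diet's other rats and 6 genes over 1.25-fold below it. Those above were GPI, PFKL, ALDOA, PGK1 and LDHB of glycolysis and MDH2, and those below were LDHA, PDHB, DLD, CS, IDH1 and SUCLA2. Compared in the same way, 8 of the other 9 rats had 0 such genes and HFD rat 5 had 1, LDHA. Of all genes tested in control rat 1, 27.9% lay above and 31.3% below these limits, and of the abundant ones 33.1% and 20.5%. The tally depended on the scaling. In control rat 1, 1 of the 27 genes lay above these limits with TPM as deposited (ALDOA) and 16 lay below, MDH1, PKM, FH and SUCLG1 among them, while the other 9 rats had 0 such genes. On that scale the shares above and below were 6.47% and 59.1% of all genes and 6.14% and 50.8% of the abundant ones.

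Other measures moved with control rat 1. Its mean effective transcript length, from the ratio of TPM to FPKM, was 789, against 905 to 918 in the other control rats. Among the 10 epithelial markers, 3 were higher than in every other control rat in rescaled TPM (TTR, FOLR1 and CLIC6) and 7 were lower. As deposited, only TTR was higher, FOLR1 was inside the control range (1217 against 1204 to 1440.5) and CLIC6 was lower (845 against 947 to 999), like the 7 others. Of the 3 mural markers only RGS5 could be named, with 42.8 against 106 to 110.3. Of the 3 endothelial markers it was PLVAP, with 97.5 against 53.8 to 62.4, and of the 5 stromal ones DCN, with 116 against 139.7 to 231. The 3 blood genes named of 4 (HBA-A1, HBA-A2 and HBB), led by HBA-A1, summed to 7456 against 3445 to 6495, and as deposited to 5567 against 3605 to 6571. The 2 macrophage markers named of 5 (CD74 and LYZ2), led by LYZ2, summed to 433 against 498 to 625, and as deposited to 324 against 521.5 to 632. The part of these measures in the levels of the pathway genes was not tested.

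Between the diets, the marker sums overlapped. Blood genes summed to 4329 ± 1119 on the HFD against 5394 ± 1791, and macrophage markers to 582 ± 74.3 against 546 ± 81.8 (± SD, n = 5 each). Of the 10 epithelial markers, 2 had an unadjusted p under 0.05 and none was called after adjustment by limma (8.59% of all genes and 13.6% of the abundant ones had such a p). These were KCNE2, with 701 ± 52.9 on the HFD against 800.5 ± 64.9 on the control diet, and KL, with 448 ± 17.9 on the HFD against 375 ± 58.5 on the control diet (± SD, n = 5 each). The diets did not overlap for KL (exact permutation p = 0.00794), with every HFD-fed rat above every control rat, as in 1.4% of all genes tested. KL was lowest in control rat 1 (273), and its log2 fold change of 0.27 was 0.16 without that rat. As deposited, KL still did not overlap, and the unadjusted p by limma was 0.0686 for KL and 0.518 for KCNE2. Markers of neurons and glia were not analysed here.

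Genes that feed or drain these pathways were taken from a further list, of which 17 of 45 are described. An unadjusted p under 0.05 was found for 3 of the 17, with SDHB and SLC25A11 lower and ME1 higher on the HFD, and none was called after adjustment. Such a p was found for 8.59% of all genes tested (4.83% lower, 3.76% higher) and for 13.6% of the abundant ones (12.4% lower). The log2 fold change was below 0 for 13 of the 17, with a median of -0.11, beside 47.3% and 0.013 for all genes and 69.4% and -0.080 for the abundant ones. With TPM as deposited it was below 0 for 9 of the 17, with a median of -0.0020. On that scale 27% of all genes and 43.2% of the abundant ones were below 0, with medians of 0.12 and 0.023. The diets did not overlap for any of these 3 genes in rescaled TPM, with every HFD-fed rat lower in 2.02% of all genes and 6.24% of the abundant ones, and higher in 1.4% and 0.341%. The diets overlapped for all 3 with TPM as deposited, where every HFD-fed rat was higher in 1.32% of all genes and 0.487% of the abundant ones. Control rat 1 was then below every HFD-fed rat for SDHB and SLC25A11, and for ME1 the highest control value (50.2) was above the lowest HFD value (48.7). For SDHB the overlap came from control rat 1 alone, with 184 to 201 in the other control rats and 157 to 175 on the HFD. SLC25A11 overlapped also without that rat (107 to 122 in the other control rats, 94.2 to 116 on the HFD).

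SDHB (ENSRNOG00000007967), the iron-sulfur subunit of succinate dehydrogenase, had 192, 185, 192, 189 and 181 in the control rats and 156, 169.95, 166, 159 and 143 on the HFD. All HFD values were below all control values, and control rat 1 was close to the other control rats (exact permutation p = 0.00794, adjusted p = 0.542 by limma). Its log2 fold change was -0.24, while the other subunits of that enzyme had 0.029 (SDHA), -0.15 (SDHC) and -0.10 (SDHD). SDHA was 114 in control rat 1 and 155 to 178 in the other control rats, and without that rat the log2 fold change was -0.077 for SDHA, -0.11 for SDHC and -0.14 for SDHD. That of SDHB was -0.24 without control rat 1, and -0.22 without it as deposited.

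SLC25A11 (ENSRNOG00000003815), the mitochondrial carrier of oxoglutarate and malate, had 116, 121, 112, 109.6 and 105 in the control rats and 97.1, 99.5, 101, 94.3 and 102 on the HFD. All HFD values were below all control values (log2 fold change -0.19, SE 0.056, exact permutation p = 0.00794). ME1 (ENSRNOG00000009715), the cytosolic malic enzyme that makes NADPH, had 50.9, 43.9, 46.1, 48.4 and 48.1 in the control rats and 52.6, 55.7, 51.6, 58.02 and 56.03 on the HFD. All HFD values were above all control values, as in 1.4% of all genes tested (log2 fold change 0.21, SE 0.061, exact permutation p = 0.00794, adjusted p = 0.542 by limma). Among these 3 genes, ME1 alone had an unadjusted p under 0.05 with TPM as deposited.

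**Figure D5:**
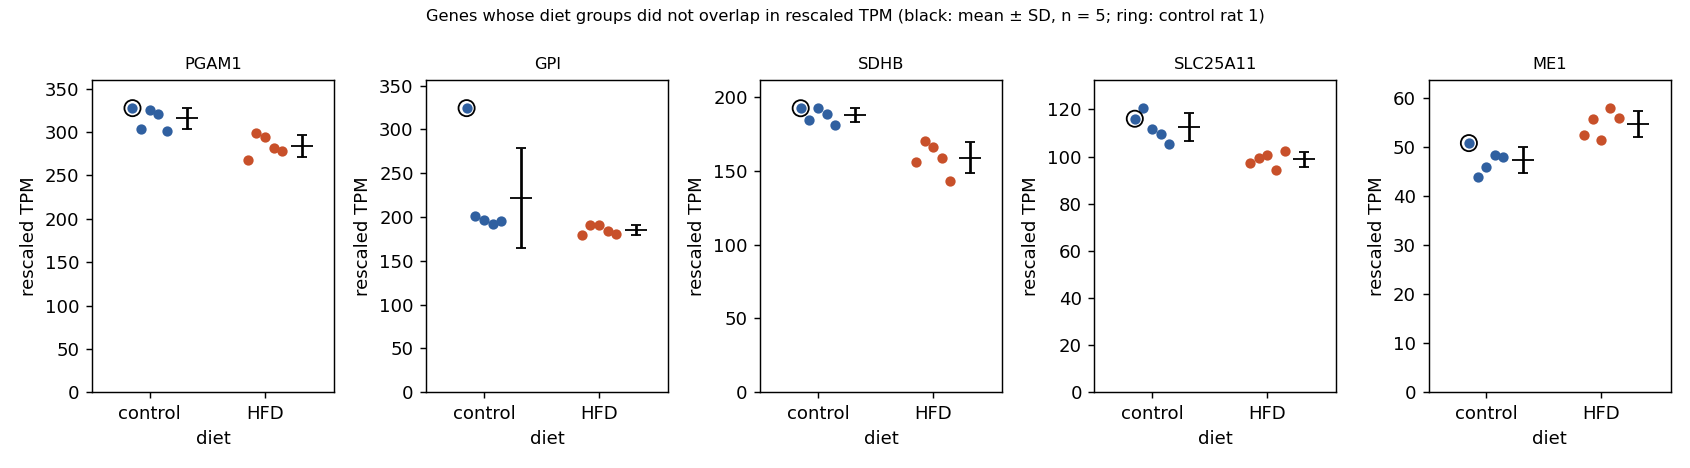
Rescaled TPM of PGAM1, GPI, SDHB, SLC25A11 and ME1 in each rat, with control rats in blue and HFD-fed rats in red, the mean ± SD of 5 rats in black, and a ring around control rat 1. Among the 27 genes and the 17 further ones, these 5 had diet groups that did not overlap in rescaled TPM. ME1 was higher (1.4% of all genes) and the other 4 lower on the HFD (2.02%). With TPM as deposited all 5 overlapped, SDHB through control rat 1 alone.

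Entry of glucose and pyruvate was described by SLC2A1, the glucose transporter GLUT1, and by MPC1 and MPC2, the subunits of the mitochondrial pyruvate carrier. SLC2A1 (ENSRNOG00000007284) averaged 46.7 ± 3.88 on the HFD against 48.05 ± 9.09 on the control diet (± SD, n = 5 each; p = 0.889, exact permutation). It was highest in control rat 1 (62.6 against 40.9 to 51.1), and its log2 fold change went from -0.027 to 0.073 without that rat. As deposited, control rat 1 was inside the control range (46.7 against 42.2 to 51.7), and the log2 fold change with all rats was 0.077. MPC1 (ENSRNOG00000012415) averaged 203 ± 24.8 on the HFD against 224 ± 11.7 on the control diet (± SD, n = 5 each; p = 0.135, exact permutation). MPC2 (ENSRNOG00000003150) averaged 159 ± 2.93 on the HFD against 172 ± 10.01 on the control diet (± SD, n = 5 each; p = 0.0238, exact permutation). MPC2 overlapped between diets, with 162 in control rat 1, 164 to 186 in the other control rats and 155 to 162 on the HFD. As deposited, MPC2 had 121 in control rat 1, 170.01 to 195 in the other control rats and 151 to 178 on the HFD. The diets then overlapped with and without control rat 1, and the log2 fold change of MPC2 was -0.0020. That of MPC1 was -0.044 on this scale. The adjusted p by limma was 0.578 for MPC1 and 0.572 for MPC2. The kinase PDK4, which switches off pyruvate dehydrogenase, was not analysed here.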

How the data were processed

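Choroid plexus RNA of 10 rats was sequenced, 1 paired-end library per rat. Reads were mapped by the authors with STAR to the Rnor_6.0 genome. The authors then ran RSEM 1.3.3, and deposited its TPM and FPKM for each Ensembl gene. For STAR the submitters' processing notes give version 2.7.2a, and the study's methods a later one. Deposited FPKM differ from TPM by 1 factor per rat and served for the mean effective length alone. The study's own test used raw counts, which were not used here.

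Rescaling divided TPM by each rat's median ratio to the geometric mean of all rats. Genes averaging at least 1 rescaled TPM were fitted on log2(TPM + 0.1), which understates changes of low genes, with limma 3.58.1 under R 4.3.3 (lmFit, then eBayes with a mean-variance trend). Diet was the single term, and Benjamini-Hochberg adjustment ran over 12198 genes at 0.05. Single genes and ratios were compared over all 252 assignments of rats to diets (exact, two-sided, mean log2 values). Versions were 3.11.15 for python, 2.4.6 for numpy, 2.3.3 for pandas, 1.17.1 for scipy and 3.10.9 for matplotlib. Without read numbers, no counting interval can be given. P-values measure the spread between rats.

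Symbols came from the paper's tables (2015 identifiers), and 7 symbols with more than 1 identifier were left out. Members and lists were chosen with earlier results of these data known, and the limits of 45 TPM and 1.25-fold after values were seen. Named are all members, the ratios, and further genes with an unadjusted p under 0.05 or listed by name (SLC2A1, MPC1, MPC2 and PDK4). SDHA, SDHC, SDHD and the markers were named after their values were seen. Other scalings, pseudocounts, filters, variance models, array weights, a replicate block and leaving out each rat were tried. Protein sequences were not used here, and 1 further gene is not reported here.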

Additional observations from a re-analysis of the deposited data

Results flagged for a closer look

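Within each diet, a value was listed here if the distance to its closest neighbour made up more than 0.71 of the full spread of the 5 rats (Dixon's criterion). This held for 21 of 78 groups of values, and 19 of the 21 came from control rat 1. For normal values, chance gives about 1 in 20 (3.9). The groups are not independent, since they come from the same rats and the ratios and sums reuse the genes. The 21 can therefore not be weighed against 3.9. No explanation was tested.

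Control rat 1 was far above the other control rats for the rescaled TPM of GPI (324 against 192 to 201), PFKL (102 against 59.98 to 67.4), ALDOA (1426 against 733 to 797), PGK1 (545 against 349 to 364), LDHB (1009 against 659 to 747) and MDH2 (238 against 157 to 173). It was far below them for PDHB (109 against 142 to 154), DLD (40.3 against 72.3 to 74.1) and CS (26.1 against 48.4 to 56.7). With TPM as deposited, the same rat was 1.20-fold the median of the other control rats for GPI, 1.18-fold for PFKL, 1.32-fold for ALDOA, 1.11-fold for PGK1, 1.05-fold for LDHB and 1.04-fold for MDH2, and 0.531-fold for PDHB, 0.401-fold for DLD and 0.376-fold for CS. Its summed level in rescaled TPM was high for glycolysis (5346 against 3911 to 4084) and low for pyruvate dehydrogenase (225 against 276 to 293).

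In this rat, the ratio of LDHA to LDHB was low (0.208 against 0.406 to 0.452), as was that of PFKM to PFKL (0.610 against 0.904 to 1.003), while the ratio of IDH2 to IDH1 (8.40 against 4.96 to 5.47) and that of MDH2 to MDH1 (0.297 against 0.1704 to 0.181) were high. The library also differed by its scaling factor (0.747 against 1.01 to 1.05), its mean effective transcript length (789 against 905 to 918), its count of genes more than 2-fold away from the rest (1842 against 171 to 221) and its TTR percentage (39.7% against 32.2% to 34.2%).

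The remaining 2 were PDHB in HFD rat 2 (143 against 131 to 134) and DLST in control rat 3 (69.6 against 58.7 to 61.4).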

How the results depend on the processing

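Over all genes, adjusted calls numbered 0 with all rats, 3 with array weights, 1 when low genes were kept and 0 to 0 when 1 rat was left out, and none of the 27 members was among them. The 1048 genes with an unadjusted p under 0.05 became 624 with TPM as deposited, 619 under a minimum mean of 10, 1874 with array weights and 794 to 1434 when 1 rat was left out. The 5 members with such a p (8.59% of all genes and 13.6% of those averaging 45 or more rescaled TPM had one) became 0 with TPM as deposited (5.11% and 5.17%), 2 without a mean-variance trend (8.21% and 9.89%), 2 with upper-quartile rescaling (8.51% and 10.7%), 11 with array weights (15.4% and 24.03%) and 1 to 9 when 1 rat was left out. Without control rat 1 and with TPM as deposited, chosen after seeing the data, they were 2. The 3 further genes became 1 with TPM as deposited, 5 with array weights and 3 to 5 when 1 rat was left out (5 when it was HFD rat 2, and 5 also for control rat 1 and for control rat 3). Without HFD rat 2, 7.85% of all genes and 15.3% of the abundant ones had such a p. The shares were 11.8% and 18.4% without control rat 1, and 8.78% and 13.99% without control rat 3. The citric acid cycle median of -0.10 was 0.00099 with TPM as deposited. The cause was not tested.

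The sign changed with TPM as deposited for PKM (0.074), PDHA1 (0.066), PDHB (0.057), IDH3A (0.020), DLST (0.084), SUCLG2 (0.019) and MDH1 (0.00099), with upper-quartile rescaling for PKM (0.00054) and DLST (0.011), and with array weights for LDHA (-0.064), DLD (-0.025), CS (-0.062), IDH1 (-0.064) and SUCLA2 (-0.069). Leaving out 1 rat, LDHA ran from -0.048 to 0.13, PDHA1 from -0.083 to 0.0093, DLD from -0.031 to 0.19, CS from -0.091 to 0.19, IDH1 from -0.073 to 0.10, SUCLA2 from -0.074 to 0.078 and DLST from -0.037 to 0.024. For DLST the sign changed without control rat 3 and without HFD rat 1, for the others only without control rat 1. Without that rat and with TPM as deposited, LDHA was -0.037, PDHA1 0.020, DLD -0.020, CS -0.080, IDH1 -0.062 and SUCLA2 -0.063. Among the ratios, PFKM to PFKL ran from -0.043 to 0.14, SUCLA2 to SUCLG2 from -0.031 to 0.19 and MDH2 to MDH1 from -0.18 to 0.023 on the log2 scale, with the sign changed only without control rat 1. Both other pseudocounts and both other filters changed no sign.

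Both diets carry replicate numbers 1 to 5, and deviations of same-numbered rats correlated by 0.116, -0.038, 0.011, 0.06 and 0.106. Replicates 1 and 5 lay just above the limit of 0.1 used for this check, and the others below it. With values this low, the numbers were not taken as pairs. A replicate block left 1141 genes (9.35%, and 13.4% of those averaging 45 or more) and 1 member with an unadjusted p under 0.05 and 0 adjusted calls. The read number of each library is unknown, so the part of depth in the spread between rats could not be examined.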
